A study of Mus musculus with 18 samples.

Results

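The 47 genes described here encode the Wnt ligands, the R-spondins, the Frizzled, Lrp5/6, Ror and Lgr receptors, the factors Lef1 and Tcf7, and 5 feedback inhibitors of the pathway, out of 55486 genes in the deposited count table. Members were picked out by gene symbol: 19 Wnt ligands, 4 R-spondins, 10 Frizzled receptors, 2 co-receptors, 2 Ror receptors, 3 R-spondin receptors, 2 TCF/LEF factors, and Axin2, Nkd1, Nkd2, Znrf3 and Rnf43. The secreted Sfrp and Dkk antagonists were not included. After the filter on low counts, 37 of the 47 members were tested, among 14273 tested genes.

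The study profiled normal fibroblasts (NFs) grown from mammary glands of FVB/n mice by RNA-seq. They had been sorted by CD26, the peptidase on the cell surface that the gene Dpp4 encodes, into CD26- NFs and CD26+ NFs, and were kept for 7 days in control medium (3 libraries per cell type) or in conditioned medium (CM) of tumour cells (6 libraries per cell type). The CM came from 6 mouse mammary tumour lines, 10-SJK-221, 13-MCB-17, 13-MCB-44, 13-MCB-90, 13-MCB-138 and 18-MCB-12, and each line gave CM to 1 library of each cell type. The tumours came from mice in which Cre driven by the Wap promoter acts in mammary epithelium on floxed alleles that include Cdh1, the E-cadherin gene, and they model invasive lobular carcinoma. Per the study's methods, donors were adult females, glands of several mice were pooled for a sort, and cells negative for EpCAM, CD49f, CD45 and CD31 were taken as fibroblasts and passaged before use. The donors were either mTmG mice or mice with the floxed alleles that lacked WapCre, and which of them gave these cultures is not given in the sources used here. Nothing in the labels says that the replicates of a group came from separate animals or cultures, so the p-values measure the spread between these libraries.

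Wnt ligands are secreted, lipid-modified proteins that bind Frizzled receptors. Together with the co-receptors Lrp5 or Lrp6 they stabilise beta-catenin, which acts through TCF/LEF factors on target genes such as Axin2, while Ror receptors take part in branches that do not need beta-catenin. R-spondins bind Lgr receptors and keep the ligases Znrf3 and Rnf43 from clearing Frizzled receptors, and in the mammary gland Wnt signals pass between stroma and epithelium during branching and in stem cell maintenance.

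Wnt16 and Wnt7a were the ligands with the largest differences between the cell types, in opposite directions, so the 250 bases before the annotated start of each are shown, with CpG dinucleotides in capitals. Both are from RefSeq (GRCm38.p6), read 5′ to 3′ in the direction of the gene.
Wnt16, chr6:22287977-22288226, plus strand: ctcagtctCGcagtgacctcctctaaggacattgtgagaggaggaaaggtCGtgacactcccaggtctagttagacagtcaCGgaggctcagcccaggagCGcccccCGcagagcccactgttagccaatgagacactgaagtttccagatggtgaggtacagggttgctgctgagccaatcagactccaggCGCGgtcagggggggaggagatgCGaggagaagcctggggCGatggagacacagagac
Wnt7a, chr6:91411354-91411603, minus strand: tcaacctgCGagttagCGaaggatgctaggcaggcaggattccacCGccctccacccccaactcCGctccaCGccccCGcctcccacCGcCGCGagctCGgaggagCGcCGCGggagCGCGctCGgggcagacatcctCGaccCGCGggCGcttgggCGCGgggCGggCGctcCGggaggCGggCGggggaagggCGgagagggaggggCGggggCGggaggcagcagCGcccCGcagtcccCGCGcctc
The Wnt7a stretch held 34 CpG against 9 in that of Wnt16. RefSeq start windows of 300 bases (250 before and 50 after the start) were found for 33 of the 47 members, 41 windows in all. The observed over expected CpG ratio of the window was 0.402 for Wnt16 and 0.970 for Wnt7a. Its median was 0.823 over the 24 tested members with a window, each at its window of highest ratio. Over all 32544 windows of the table, without such a choice, it was 0.387. Wnt5b, lower in CD26+ NFs like Wnt7a, had 3 windows with ratios from 0.194 to 1.06, and Fzd1, higher in CD26+ NFs like Wnt16, had 1 window at 0.754.

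The TCF/LEF-type motif CTTTGAA or CTTTGAT, searched on both strands, was present in the windows of 2 of the 33 members, or 4.88% of their 41 windows, and in 8.67% of all windows of the same length. The members were Wnt5b, at 1 of its starts, and Wnt11. The stretch of Wnt11 before its first start is shown from the same source with the motif in capitals, where it reads as the reverse complement of CTTTGAT.
Wnt11, chr7:98834862-98835111, plus strand: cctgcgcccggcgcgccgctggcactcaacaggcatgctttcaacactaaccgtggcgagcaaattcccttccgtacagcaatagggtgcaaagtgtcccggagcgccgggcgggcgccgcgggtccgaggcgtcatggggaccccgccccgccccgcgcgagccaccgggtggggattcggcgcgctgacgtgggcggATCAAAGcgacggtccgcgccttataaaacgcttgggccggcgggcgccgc
A match is a description of the letters and not of a bound site.

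Library totals ran from 9725723 to 14585349 counts, and a floor of 3 counts in a library corresponds to 0.203 to 0.290 CPM. CPM is the count scaled by the TMM-adjusted library size. All 10 fibroblast markers were above 1 CPM in every library of each group, so markers of the labelled cell type were present throughout. Their sum was 16534 to 18495 CPM in CD26- control and 62532 to 79515 CPM in CD26+ control libraries, and 9 of the 10 were higher in CD26+ NFs in control medium and 8 in CM. The 3 tested adipocyte markers were also higher in CD26+ NFs in both media. The gene of the sorting marker, Dpp4, had at most 2 counts in the control libraries of both cell types, so it did not tell the cell types apart in control medium. In tumour CM it had 0.0776 to 0.881 CPM in CD26- NFs and 0.715 to 7.80 CPM in CD26+ NFs. Epithelial markers were present although EpCAM+ and CD49f+ cells had been gated out. The summed level of the 16 markers was 5292 to 5958 CPM in CD26- control, 3480.4 to 5666 CPM in CD26- CM, 838 to 1554 CPM in CD26+ control and 784 to 1895 CPM in CD26+ CM libraries. Of the 16, 14 were lower in CD26+ NFs in each medium. Immune markers summed to at most 29.7 CPM and endothelial markers to at most 8.77 CPM in any library. In bulk RNA, fewer cells of a type and less RNA per cell cannot be told apart.

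Levels of different genes were compared per length, as RPKM over the union of exons. In CD26- control NFs the ligand with the highest level was Wnt7b at 31.5 ± 4.81 RPKM (SD, n = 3), followed by Wnt7a at 13.1 ± 2.23, Wnt5a at 11.2 ± 0.367, Wnt5b at 9.57 ± 1.07 and Wnt9a at 9.51 ± 0.501. In CD26+ control NFs the order changed, with Wnt5a first at 12.0 ± 0.854 RPKM (SD, n = 3), then Wnt2 at 7.61 ± 0.791, Wnt9a at 7.31 ± 1.18 and Wnt7b at 6.97 ± 1.91, and the last 3 lay within their spread of each other. Wnt7b made up 31.6% of the summed ligand RPKM in CD26- control NFs and 15.1% in CD26+ control NFs. Among the Frizzled receptors Fzd1 was highest in every group, at 25.8 ± 0.235 RPKM in CD26- control and 80.2 ± 5.64 RPKM in CD26+ control NFs (SD, n = 3 each). Lgr4 and Lgr6 ran from 8.51 to 34.0 RPKM in mean over the groups and Lgr5 reached at most 0.869 RPKM. Nkd2 was the highest of the 5 feedback inhibitors in every group, at 4.93 to 15.2 RPKM in mean.

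The cell-type comparison in control medium asks how CD26+ and CD26- NFs differ without tumour-derived factors. Of 37 tested members, 27 passed an FDR under 0.05, or 73.0%, with 12 higher and 15 lower in CD26+ NFs. FDR stands for the p of edgeR's quasi-likelihood test after Benjamini-Hochberg adjustment over all tested genes. Of all tested genes 50.3% passed, 25.0% as higher and 25.4% as lower. With the log2 limit of 2 or -2 named in the study's methods, 7 members passed, against 5.97% of all tested genes. In tumour CM 22 members passed (59.5%, 13 higher and 9 lower), against 58.6% of all tested genes (29.3% higher and 29.3% lower), so the members' share was near the background there. The log2 limit left 6 of them, against 4.16% of all tested genes. The same 20 members passed with the same sign in both media, which is 74.1% of the calls in control medium and 90.9% of those in CM. The 2 comparisons share no library. The cell types did not overlap for 31 members in control medium and 16 in CM, or for 64.7% and 31.7% of all tested genes. With the CM line as a block, 27 members passed in CM, against 63.0% of all tested genes in that fit, adding Fzd4, Ror1, Wnt2, Wnt4 and Wnt9a, with log2 differences of 0.45, 0.15, 0.42, -0.42 and -0.34. The median size of the log2 difference over the members was 0.94 in control medium, against 0.33 over all tested genes, and 0.57 in CM, against 0.28.

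**Figure D1:**
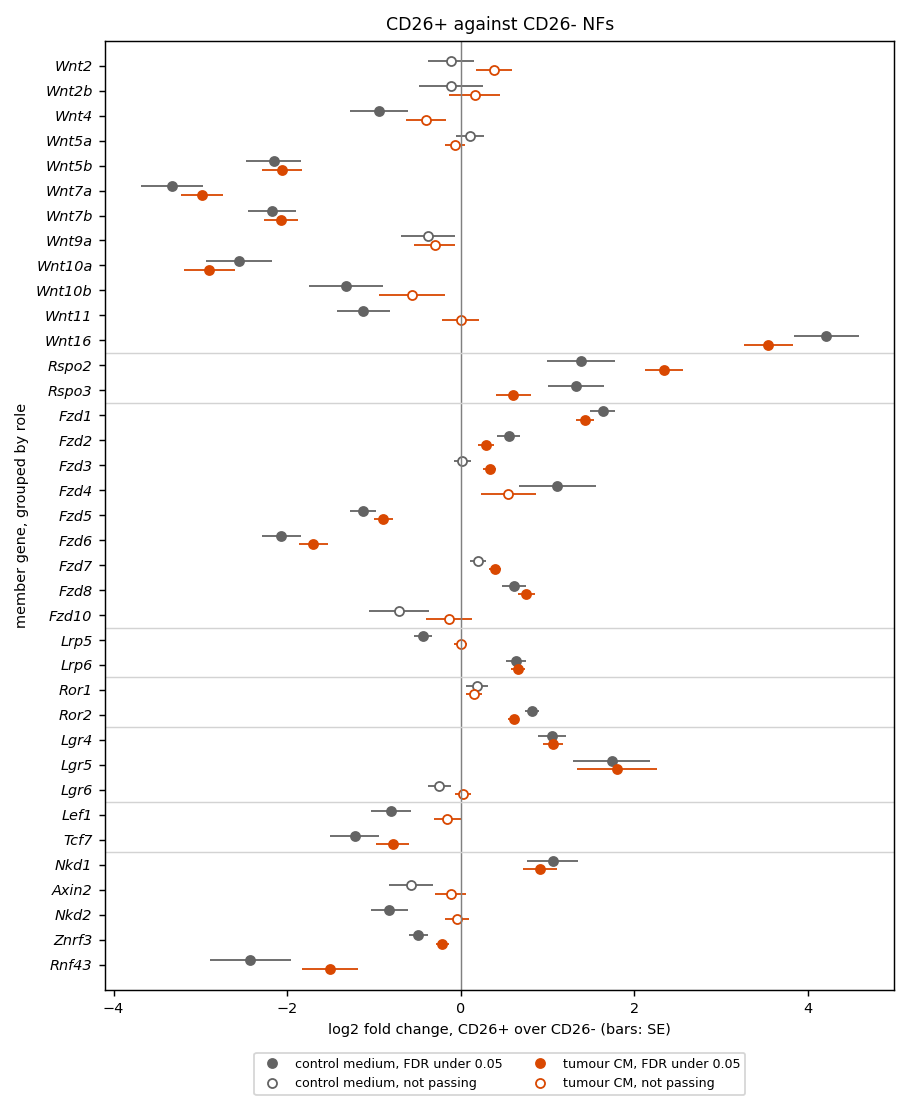
Log2 fold change (x axis) of CD26+ over CD26- NFs for the 37 tested members (y axis, grouped by role) in control medium (grey) and tumour CM (orange). Bars are SE, filled points passed an FDR under 0.05, and the ends of the range are Wnt7a at -3.33 and Wnt16 at 4.21, both in control medium.

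Epithelial markers move with this comparison, and their mean level did not overlap between the cell types: the mean log2 CPM of the 16 markers ran from 6.14 to 7.02 in CD26- and from 4.12 to 5.48 in CD26+ libraries. With this mean as a covariate, 4 members passed in control medium (Wnt16, Fzd1, Nkd1 and Ror2) and 7 in tumour CM (the same 4, Axin2, Fzd8 and Rspo2), all higher in CD26+ NFs, against 5.18% and 6.07% of all tested genes in that fit. Axin2 had not passed without the covariate and turned from -0.11 to 1.10. The other 8 members called higher in control medium lost the call with log2 differences of 0.31 to 2.58, which were for most about as large as without the covariate: 2.58 against 1.74 for Lgr5, 1.61 against 1.33 for Rspo3, 0.62 against 0.63 for Lrp6 and 0.84 against 1.05 for Lgr4. Fzd4 was the smallest, at 0.31 against 1.11. In CM 7 of the 13 members called higher lost the call, with log2 differences of 0.33 to 2.54. They were Fzd2, Fzd3, Fzd7, Lgr4, Lgr5, Lrp6 and Rspo3. All 15 members called lower in control medium and all 9 in CM lost the call, with values from -1.34 to 0.42 and from -1.20 to 0.34. At an unadjusted p under 0.05 the edgeR fit with the covariate had 13 higher and 4 lower members in control medium, and 12 higher and 2 lower in CM. The share of all tested genes at that unadjusted threshold was not computed. The epithelial level and the cell type cannot be told apart by these libraries. Pericyte markers summed to 59.0 to 77.9 CPM in CD26+ control libraries, below the 159.8 to 173 CPM in CD26- control, with 3 of 5 lower and 1 higher in CD26+ NFs, while in CM the cell types overlapped. The part of the fibroblast, adipocyte and pericyte markers in the cell-type differences was not tested.

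Of the 12 tested ligands, 8 differed between the cell types in control medium, 7 of them lower in CD26+ NFs, and 5 in CM, 4 of them lower, where 50.3% and 58.6% of all tested genes passed. Wnt7a (ENSMUSG00000030093, chromosome 6, 91363981 to 91411363), a ligand known from limb and reproductive tract patterning, had 39.1, 49.7 and 36.3 CPM in the CD26- control libraries and 5.91, 1.85 and 4.75 CPM in the CD26+ control libraries. In CM it had 34.7 to 50.9 (median 45.9) CPM in CD26- and 2.50 to 8.96 (median 5.13) CPM in CD26+ NFs. The cell types did not overlap in either medium, and the log2 difference was -3.33 ± 0.36 (SE, FDR 8.05e-07) in control medium and -2.98 ± 0.24 (SE, FDR 2.05e-08) in CM. With the epithelial covariate it was -1.34 and -1.20, no longer past the threshold.

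Wnt7b (ENSMUSG00000022382, chromosome 15, 85535437 to 85582473), a close relative of Wnt7a that is made by many epithelia, had 157, 176 and 129 CPM in CD26- control and 38.4, 23.4 and 40.6 CPM in CD26+ control libraries. In CM the levels were 126 to 195 (median 161) CPM in CD26- and 23.6 to 57.6 (median 34.8) CPM in CD26+ NFs. All CD26+ libraries lay below all CD26- libraries, with a log2 difference of -2.17 ± 0.28 (SE, FDR 4.98e-06) in control medium and -2.07 ± 0.19 (SE, FDR 9.24e-08) in CM. Under the epithelial covariate it was -0.48 and -0.58, neither past the threshold. The gene overlaps one on the other strand, and the strand setting of the counting is not given in the sources used here.

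Wnt5b and Wnt10a followed the same direction without overlap. Wnt5b, a ligand of the branches that do not need beta-catenin, had 27.0, 27.1 and 22.1 CPM in CD26- control and 7.69, 3.33 and 6.08 CPM in CD26+ control libraries, a log2 difference of -2.16, and -2.06 in CM. Wnt10a, a ligand that acts through beta-catenin in skin appendages and teeth, had 7.65, 10.2 and 6.57 CPM and 1.46, 0.667 and 2.00 CPM, with -2.56 in control medium and -2.90 in CM. In CM Wnt5b had 15.1 to 31.1 (median 17.7) CPM in CD26- and 3.38 to 8.01 (median 3.99) CPM in CD26+ NFs, and Wnt10a 4.54 to 10.6 (median 6.81) CPM and 0.422 to 1.35 (median 0.906) CPM. Both passed in both media. Wnt5b overlaps Fbxl14 on the other strand, and their reads may be shared. With the epithelial covariate the log2 difference of Wnt5b in control medium was -0.0359 and that of Wnt10a was 0.00504, and in CM they were -0.15 and -0.60, none past the threshold.

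Wnt4, a ligand of mammary ductal branching, and Wnt11, a ligand of convergent extension, passed in control medium and, in the fit without the line as a block, not in CM. Wnt4 had 16.6, 23.1 and 17.3 CPM in CD26- control and 6.64, 10.7 and 12.2 CPM in CD26+ control libraries (log2 difference -0.94), and -0.41 in CM, with 14.0 to 27.7 (median 16.2) CPM in CD26- and 8.85 to 24.1 (median 12.3) CPM in CD26+ NFs. With the CM line as a block Wnt4 also passed in CM, at -0.42 (FDR 0.0404). The call in control medium was lost without CD26- control replicate 2 (FDR 0.105), CD26+ control replicate 10 (FDR 0.117) or CD26+ control replicate 11 (FDR 0.0525). Wnt11 had 33.4, 32.0 and 26.1 CPM and 16.6, 9.93 and 15.5 CPM (log2 difference -1.12). In CM the ranges of Wnt11 were nearly the same, with 14.8 to 31.7 (median 18.2) CPM in CD26- and 15.0 to 31.9 (median 19.4) CPM in CD26+ NFs. The difference between the media had an FDR of 0.445 for Wnt4. For Wnt11 it was 1.12 ± 0.38 (SE, FDR 0.0729) on the log2 scale, which did not pass, while with the CM line as a block it was 1.13 (FDR 0.00385) and passed, as it did in DESeq2 (FDR 0.0378). Under the epithelial covariate the cell-type differences in control medium turned, to 0.42 for Wnt4 and 0.16 for Wnt11, neither past the threshold.

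Wnt16 (ENSMUSG00000029671, chromosome 6, 22288227 to 22298522), a ligand best known from bone, was the ligand higher in CD26+ NFs. It had 0.387, 0.342 and 0.338 CPM in CD26- control and 6.39, 7.85 and 5.94 CPM in CD26+ control libraries. In CM it had 0.155 to 0.450 (median 0.282) CPM in CD26- and 2.40 to 4.83 (median 3.42) CPM in CD26+ NFs. Its level in CD26- NFs was near the floor in every library, and the CD26+ libraries were all far above it. The log2 difference was 4.21 ± 0.37 (SE, FDR 1.14e-07) in control medium and 3.54 ± 0.28 (SE, FDR 1.63e-08) in CM, and with the epithelial covariate 4.27 and 3.59, both still past the threshold.

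**Figure D2:**
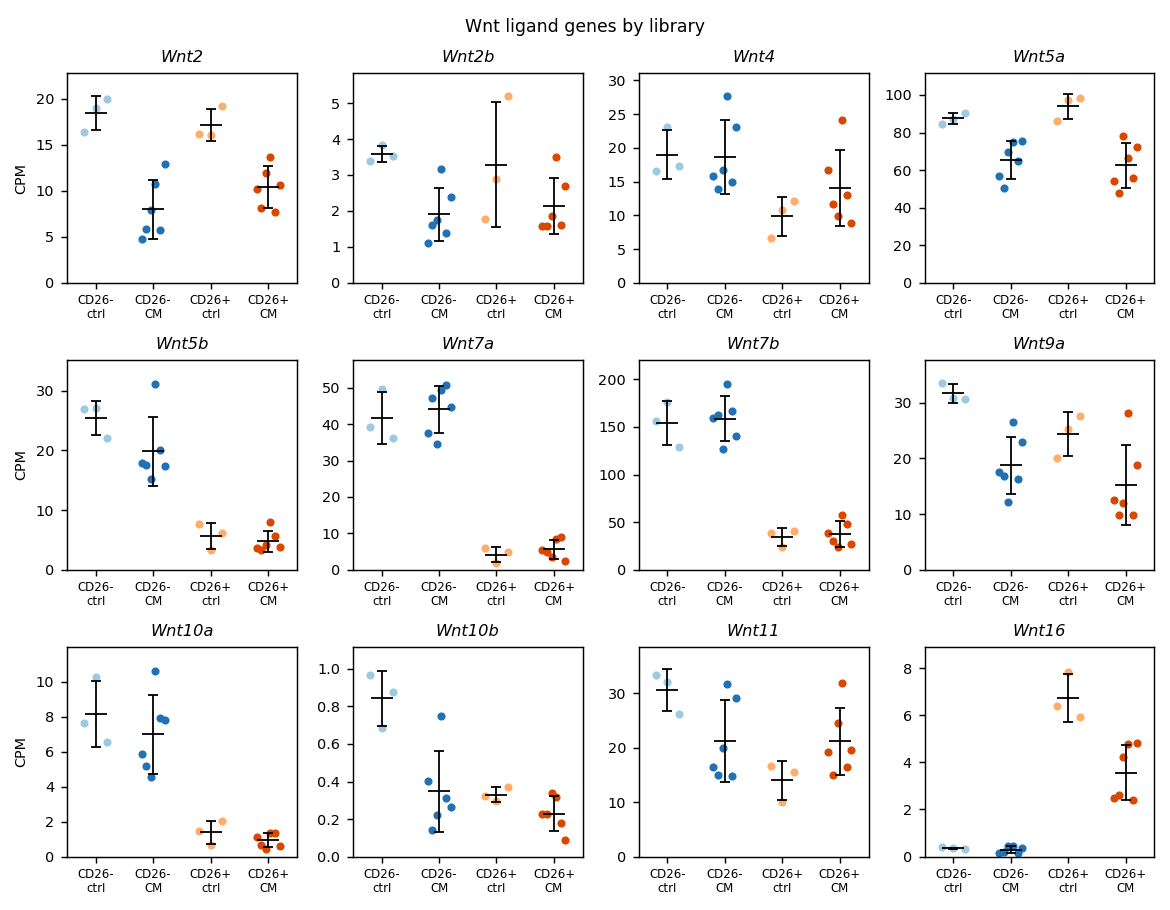
CPM (y axis, from 0) of the 12 tested Wnt ligands in each library, by group (x axis: CD26- and CD26+ NFs in control medium, n = 3 each, and in tumour CM, n = 6 each). Points are libraries, lines are the mean and bars the SD, and Wnt16 is above 2 CPM in CD26+ libraries and under 0.5 CPM in CD26- libraries.

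The CM comparisons ask what tumour-derived factors change in each cell type. In CD26- NFs 10 members passed (27.0%, 2 higher and 8 lower in CM), against 15.2% of all tested genes (7.88% higher and 7.28% lower), and 1 of them also passed the log2 limit, against 0.904%. In CD26+ NFs 11 members passed (29.7%, 4 higher and 7 lower), against 28.6% of all tested genes (15.2% higher and 13.4% lower), a share near the background, and 1 passed the log2 limit, against 2.01%. In both cell types that gene was Lgr5. The media did not overlap for 13 members in CD26- and 12 in CD26+ NFs, or for 20.3% and 25.3% of all tested genes. The members that passed in both cell types, all with the same sign, were Fzd6, Lgr4, Lgr5, Nkd2, Ror2, Wnt2 and Wnt5a, or 70.0% of the calls in CD26- NFs and 63.6% of those in CD26+ NFs. Single control libraries moved these counts: 6 members passed in CD26- NFs without control replicate 3, and 7 in CD26+ NFs without control replicate 12. The summed epithelial markers were 3480.4 to 5666 CPM in CD26- CM against 5292 to 5958 CPM in CD26- control libraries, and 1 of the 16 fell in each cell type. Pericyte markers summed to 159.8 to 173 CPM in CD26- control and 56.9 to 109 CPM in CD26- CM libraries, without overlap, and 2 of 5 fell. Fibroblast markers also moved with CM, with 4 of 10 higher and 2 lower for CD26- NFs, and 3 higher and 5 lower for CD26+ NFs. The part of these markers in the CM effects was not tested. With the epithelial covariate 7 members passed in CD26- and 17 in CD26+ NFs, against 9.35% and 29.4% of all tested genes in that fit.

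**Figure D3:**
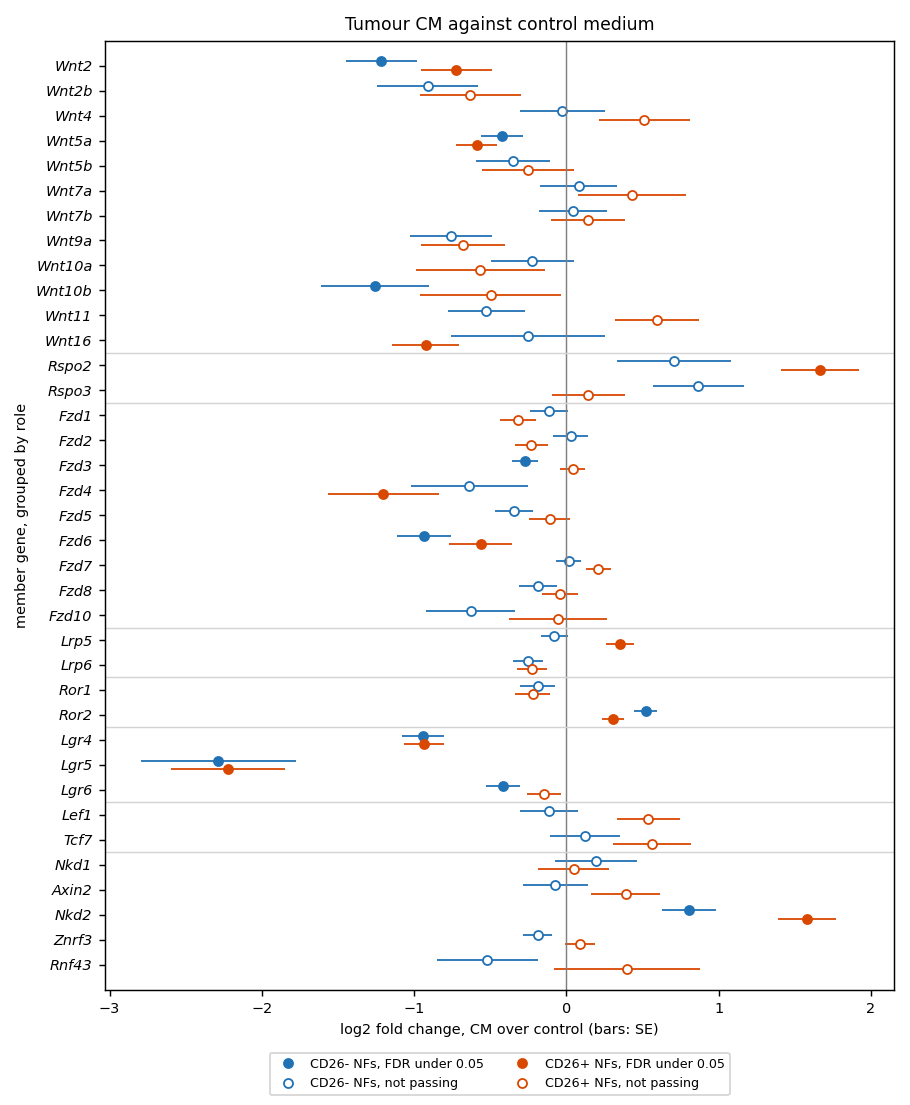
Log2 fold change (x axis) of tumour CM over control medium for the 37 tested members (y axis, grouped by role) in CD26- (blue) and CD26+ NFs (orange). Bars are SE and filled points passed an FDR under 0.05, with Lgr5 lowest in both cell types, at -2.29 and -2.22, and Nkd2 at 0.81 and 1.58.

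Among the 12 tested ligands, 3 fell in CM in each cell type: Wnt2, Wnt5a and Wnt10b in CD26- NFs, and Wnt2, Wnt5a and Wnt16 in CD26+ NFs, where 7.28% and 13.4% of all tested genes were lower. Wnt2 (ENSMUSG00000010797, chromosome 6, 17988940 to 18030585), a ligand of lung and mammary stroma, had 16.4, 19.0 and 19.97 CPM in CD26- control and 4.80 to 12.9 (median 6.90) CPM in CD26- CM libraries, a log2 change of -1.22 ± 0.23 (SE, FDR 0.00273). In CD26+ NFs it had 16.2, 16.1 and 19.2 CPM in control medium and 7.72 to 13.7 (median 10.4) CPM in CM (log2 change -0.72). The media did not overlap in either cell type. In CD26+ NFs the call was lost without any 1 of the 3 control libraries (FDR 0.0557, 0.0548 and 0.110 without replicates 10, 11 and 12) or without CM replicate 14 or 17 (FDR 0.0531 and 0.0525).

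Wnt5a (ENSMUSG00000021994, chromosome 14, 28504750 to 28527448), the main ligand of Ror2 and an inhibitor of mammary duct extension, had 84.6, 87.5 and 90.4 CPM in CD26- control and 50.5 to 75.5 (median 67.1) CPM in CD26- CM libraries. In CD26+ NFs it had 86.3, 97.4 and 98.2 CPM in control medium and 47.9 to 78.4 (median 61.1) CPM in CM. Every CM library lay below every control library of its cell type, with a log2 change of -0.42 in CD26- and -0.59 ± 0.14 (SE, FDR 0.00372) in CD26+ NFs. The call in CD26- NFs was lost without any 1 of the 3 control libraries and without CM replicates 4, 5, 6 or 8, with an FDR of up to 0.157. It was also lost with the epithelial covariate (FDR 0.0946). The cell types did not differ at the FDR in either medium (log2 difference 0.10 and -0.07).

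Wnt16 fell in CD26+ NFs, from the control levels above to 2.40 to 4.83 (median 3.42) CPM, with a log2 change of -0.92, and the media did not overlap. Wnt10b had at most 0.968 CPM in any library and passed as lower with CM in CD26- NFs and, in control medium, as lower in CD26+ NFs. The CM call was lost in DESeq2 (FDR 0.0594), with no filter (FDR 0.0640), with the epithelial covariate (FDR 0.108) and without replicate 1, 3 or 6, and Wnt10b fell below the filter without replicate 7 or with only the 2 groups compared. The control-medium call was lost in DESeq2 (FDR 0.0584) and without replicate 11, the gene was filtered out with only those 2 groups, and the value turned to 0.0739 with the covariate. Wnt9a, a ligand of joint formation, had 33.6, 30.8 and 30.6 CPM in CD26- control and 12.1 to 26.5 (median 17.2) CPM in CD26- CM libraries, and 19.99, 25.3 and 27.7 CPM in CD26+ control and 9.85 to 28.1 (median 12.2) CPM in CD26+ CM libraries. Its log2 change of -0.76 in CD26- and -0.68 in CD26+ NFs did not pass (FDR 0.0654 and 0.0732). Each passed without its library given CM of 13-MCB-44 (FDR 0.0292 and 0.00354). Wnt2b, at 1.12 to 5.19 CPM over all libraries, passed none of the group comparisons as reported, and passed as lower with CM in CD26- NFs without replicate 7 (FDR 0.0239).

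Of the R-spondins, Rspo2 and Rspo3 were tested, and both were higher in CD26+ NFs in both media. Rspo2, a secreted amplifier of Wnt signals, had 0.678, 0.256 and 0.271 CPM in CD26- control and 0.971, 1.11 and 0.965 CPM in CD26+ control libraries. In CM it had 0.351 to 1.01 (median 0.609) CPM in CD26- and 2.68 to 3.65 (median 3.25) CPM in CD26+ NFs. All 6 CD26+ CM libraries lay above every other library. Counts in CD26- NFs reached down to the floor of 3, at 3 to 7 in control medium and 5 to 13 in CM. Rspo2 rose with CM in CD26+ NFs by 1.66 ± 0.25 (SE, FDR 0.000127) on the log2 scale and differed between the cell types in CM by 2.34 ± 0.21 (SE, FDR 7.26e-08). In CD26- NFs its change of 0.70 did not pass, and the difference between the 2 CM effects did not pass either (FDR 0.235). Rspo3 ran from 0.609 to 3.38 CPM over all libraries, with a log2 difference between the cell types of 1.33 in control medium and 0.61 in CM. With the epithelial covariate these were 1.61 and 0.85, neither past the threshold. The difference of Rspo2 was then 1.56 in control medium, not past the threshold, and 2.50 in CM, which passed.

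Of the 9 tested Frizzled receptors, 6 differed between the cell types in control medium (4 higher and 2 lower in CD26+ NFs) and 7 in CM (5 higher and 2 lower), against 50.3% and 58.6% of all tested genes. Fzd1 (ENSMUSG00000044674, chromosome 5, 4753839 to 4758035), a receptor that can act through beta-catenin, had 108, 109 and 108 CPM in CD26- control and 318, 363 and 328 CPM in CD26+ control libraries. In CM it had 79.2 to 129.6 (median 97.2) CPM in CD26- and 249.9 to 313 (median 260.3) CPM in CD26+ NFs. The cell types were far apart in both media, with log2 differences of 1.64 ± 0.14 (SE, FDR 1.12e-07) and 1.43 ± 0.10 (SE, FDR 4.13e-09), and 1.40 and 1.23 with the epithelial covariate, which still passed.

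Fzd6 (ENSMUSG00000022297, chromosome 15, 39006034 to 39038188), a receptor of planar cell polarity in hair and skin, moved the other way. It had 69.3, 58.9 and 71.0 CPM in CD26- control and 17.2, 13.5 and 16.8 CPM in CD26+ control libraries. In CM it had 26.3 to 46.7 (median 34.5) CPM in CD26- and 7.60 to 16.2 (median 10.5) CPM in CD26+ NFs. The log2 difference between the cell types was -2.07 ± 0.23 (SE, FDR 9.84e-07) in control medium and -1.70 in CM, without overlap. Under the epithelial covariate these were -0.53 and -0.32, neither past the threshold. Fzd6 also fell with CM, with a log2 change of -0.94 ± 0.18 (SE, FDR 0.00262) in CD26- NFs and of -0.56 in CD26+ NFs (FDR 0.0489), where the media overlapped and the call was lost without any 1 of the 3 control libraries and without CM replicates 13, 14, 15, 17 or 18 (FDR up to 0.156).

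Fzd5, a receptor of Wnt7 and Wnt5 ligands in several tissues, had 84.2, 82.6 and 80.6 CPM in CD26- control and 41.2, 33.5 and 38.5 CPM in CD26+ control libraries. Its CM libraries had 52.5 to 80.1 (median 64.1) CPM in CD26- and 29.1 to 43.0 (median 34.6) CPM in CD26+ NFs. It was lower in CD26+ NFs by a log2 difference of -1.13 in control medium and -0.89 in CM, without overlap. With the epithelial covariate these were -0.46 and -0.29, neither past the threshold. Fzd8, at 12.2, 10.5 and 9.00 CPM and 15.5, 15.9 and 16.6 CPM in the same groups, was higher in CD26+ NFs in both media (0.61 and 0.75). In CM Fzd8 had 7.51 to 10.9 (median 9.47) CPM in CD26- and 13.5 to 17.2 (median 15.6) CPM in CD26+ NFs. With the covariate its differences were 0.84 in control medium, not past the threshold, and 0.96 in CM, which passed.

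Fzd2 had 49.2, 45.5 and 41.4 CPM in CD26- control and 60.4, 72.1 and 66.4 CPM in CD26+ control libraries, and 35.0 to 53.4 (median 46.2) CPM and 46.9 to 62.9 (median 57.8) CPM in CM. It was higher in CD26+ NFs by 0.55 in control medium, without overlap, and by 0.29 in CM, where the cell types overlapped. With the epithelial covariate these were 0.68 and 0.41, neither past the threshold. Fzd3, a receptor of axon guidance, had 29.4, 31.0 and 38.2 CPM in CD26- control, 31.0, 32.6 and 36.4 CPM in CD26+ control, 25.7 to 28.8 (median 27.1) CPM in CD26- CM and 30.4 to 37.8 (median 33.9) CPM in CD26+ CM libraries. Fzd7 had 63.8, 61.5 and 61.7 CPM in CD26- control, 63.0, 75.2 and 76.1 CPM in CD26+ control, 56.9 to 71.7 (median 60.7) CPM in CD26- CM and 78.9 to 92.4 (median 80.5) CPM in CD26+ CM libraries. Between the cell types Fzd3 and Fzd7 passed in CM alone, without overlap, by 0.33 and 0.39, against 0.02 and 0.20 in control medium, and the difference between the media did not pass (FDR 0.111 and 0.319). Under the epithelial covariate the values in CM were 0.35 and 0.33, neither past the threshold. Fzd3 passed as lower with CM in CD26- NFs (-0.27), a call lost without control replicate 2 or 3 or CM replicates 5, 6 or 8, with a change of -0.15 without control replicate 3. This call was also lost with no filter (FDR 0.0580) and with the epithelial covariate (FDR 0.0782).

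Fzd4 (ENSMUSG00000049791, chromosome 7, 89404355 to 89413134), the receptor of retinal vessel growth, had 45.5, 43.0 and 52.1 CPM in CD26- control and 19.9 to 51.0 (median 25.3) CPM in CD26- CM libraries. In CD26+ NFs it had 95.9, 109 and 99.95 CPM in control medium and 21.1 to 95.0 (median 32.2) CPM in CM. Its CM libraries spread over a wide range in both cell types, and the media did not overlap in CD26+ NFs. The fall with CM in CD26+ NFs passed, with a log2 change of -1.20 (FDR 0.0196), and was lost without control replicate 11 or 12 (FDR 0.0633 and 0.0501). The difference between the cell types passed in control medium (1.11, FDR 0.0424), and it was lost without any 1 of the 6 control libraries. The difference between the CM effects on Fzd4 did not pass as reported (FDR 0.563) or with the epithelial covariate (FDR 0.629). It passed with the CM line as a block, at a log2 difference of -0.66 (FDR 0.0103). Fzd10, at 0.375 to 1.74 CPM, passed no comparison.

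The co-receptors Lrp5 and Lrp6 differed between the cell types in opposite directions in control medium. Lrp6 (ENSMUSG00000030201, chromosome 6, 134446476 to 134566965) had 177, 187 and 195 CPM in CD26- control and 276, 303 and 289 CPM in CD26+ control libraries, and it was higher in CD26+ NFs without overlap in both media, with 134 to 193 (median 151) CPM in CD26- and 209.7 to 288 (median 242) CPM in CD26+ NFs in CM (0.63 and 0.66). Lrp5 (ENSMUSG00000024913, chromosome 19, 3584828 to 3686564) had 90.1, 91.4 and 84.6 CPM in CD26- control, 74.6 to 92.6 (median 83.1) CPM in CD26- CM, 67.2, 66.9 and 63.1 CPM in CD26+ control and 70.6 to 104 (median 82.2) CPM in CD26+ CM libraries. In control medium it was lower in CD26+ NFs (-0.43), and it rose with CM in CD26+ NFs (0.35), where its CM libraries overlapped those of CD26- NFs. Under the epithelial covariate the Lrp5 difference in control medium was -0.16, not past the threshold. The differences of Lrp6 were then 0.62 in control medium and 0.64 in CM, neither past the threshold. The rise of Lrp5 was lost without CD26+ control replicate 12 (FDR 0.0534).

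The difference between the 2 CM effects was tested for all members, and 1 of 37 passed (2.70%), against 7.53% of all tested genes (4.53% more positive and 3.01% more negative in CD26+ NFs). Of 5 tested pericyte markers 2 had a more positive CM effect in CD26+ NFs, and their part was not tested. The member that passed was Lrp5. For Lrp5 the CM effect in CD26+ NFs minus that in CD26- NFs was 0.43 ± 0.13 (SE, FDR 0.0494) on the log2 scale, short of the log2 limit that 0.392% of all tested genes passed. The call was lost without any 1 of 14 of the 18 libraries, with an FDR of up to 0.127. At an unadjusted p under 0.05 there were 6 members, a threshold at which the share of all tested genes was not computed. With the CM line as a block 4 members passed, against 17.6% of all tested genes in that fit: Lrp5, Fzd4, Nkd2 with 0.75 (FDR 0.0294) and Wnt11 with 1.13 (FDR 0.00385). Under the epithelial covariate 0 members passed in edgeR, where 7.14% of all tested genes did and 5 members had an unadjusted p under 0.05. DESeq2, run without the covariate, called 3 members.

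Ror2 (ENSMUSG00000021464, chromosome 13, 53109312 to 53286124), a Wnt5a receptor, was higher in CD26+ NFs and higher in CM. It had 27.9, 26.7 and 26.3 CPM in CD26- control and 44.4, 49.5 and 49.0 CPM in CD26+ control libraries. In CM it had 34.5 to 44.6 (median 37.8) CPM in CD26- and 55.5 to 61.5 (median 59.0) CPM in CD26+ NFs. No pair of compared groups overlapped. The log2 difference between the cell types was 0.82 ± 0.08 (SE, FDR 5.22e-07) in control medium and 0.61 ± 0.06 (SE, FDR 1.14e-07) in CM, and the CM effect was 0.52 ± 0.07 (SE, FDR 0.000362) in CD26- and 0.30 ± 0.07 (SE, FDR 0.00404) in CD26+ NFs. Ror1 ran from 28.1 to 45.7 CPM over all libraries and passed none of the comparisons as reported. It passed in some alternatives, among them the cell types in control medium with only the 2 groups compared (FDR 0.0214) and in CM with the line as a block, and the line with no filter (FDR 0.0111).

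**Figure D4:**
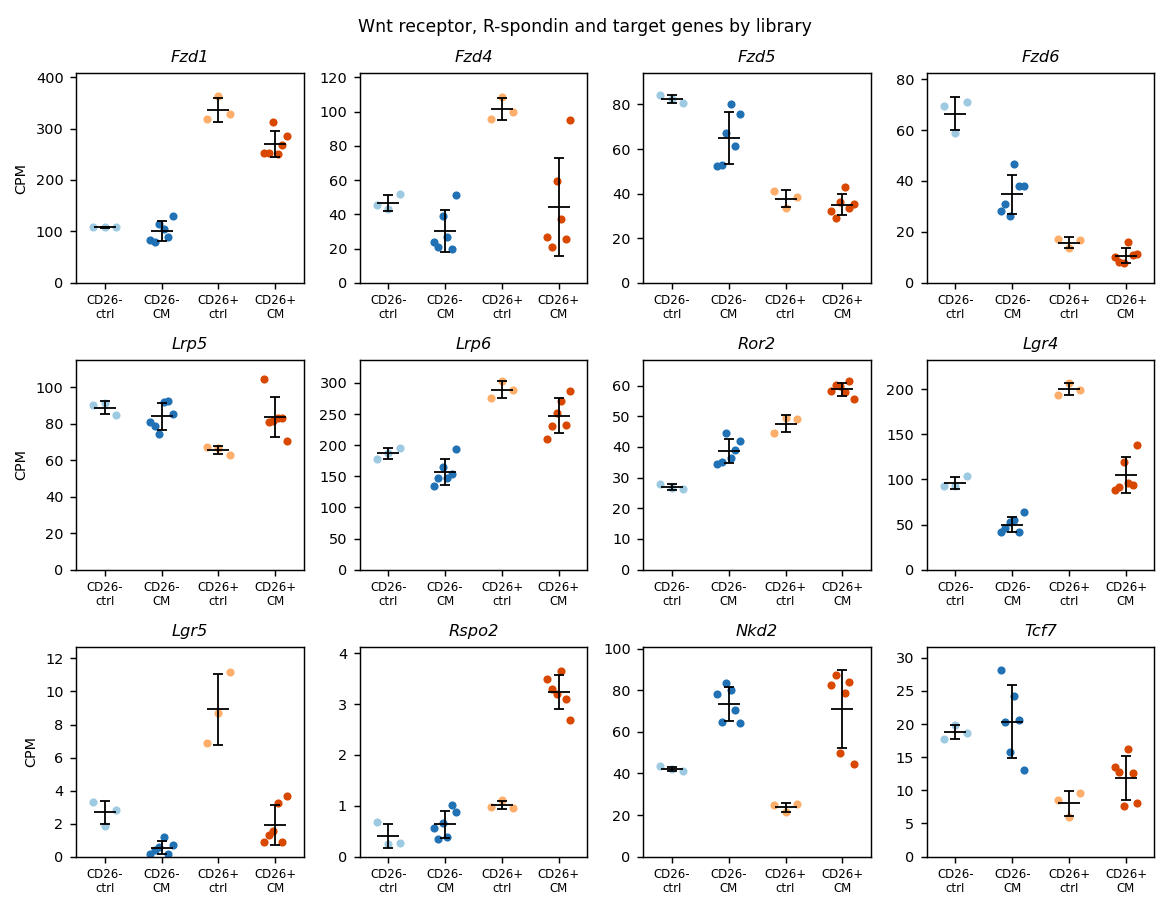
CPM (y axis, from 0) of 12 receptor, R-spondin and target genes in each library, by group (x axis as for the ligands). Points are libraries, lines the mean and bars the SD, and Lgr4 and Lgr5 are lower in CM in both cell types while Ror2 and Nkd2 are higher.

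All 3 R-spondin receptors were lower in CM in CD26- NFs, and Lgr4 and Lgr5 also in CD26+ NFs, against 7.28% and 13.4% of all tested genes. Lgr4 (ENSMUSG00000050199, chromosome 2, 109917647 to 110014257), which is broadly expressed, had 92.6, 92.3 and 104 CPM in CD26- control and 41.5 to 63.8 (median 49.1) CPM in CD26- CM libraries. In CD26+ NFs it had 194, 207 and 199.6 CPM in control medium and 88.8 to 138 (median 95.1) CPM in CM. Every CM library lay below every control library of its cell type, and the log2 change was -0.94 ± 0.14 (SE, FDR 0.000373) in CD26- and -0.94 ± 0.13 (SE, FDR 6.95e-05) in CD26+ NFs. The difference between the cell types was 1.05 in control medium and 1.06 in CM. With the epithelial covariate it was 0.84 and 0.87, neither past the threshold.

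Lgr5 (ENSMUSG00000020140, chromosome 10, 115450311 to 115587780), a stem cell marker of intestine and other epithelia, was low in all groups. It had 3.29, 1.88 and 2.84 CPM in CD26- control and 0.155 to 1.20 (median 0.503) CPM in CD26- CM libraries. In CD26+ NFs it had 6.88, 8.67 and 11.2 CPM in control medium and 0.887 to 3.66 (median 1.40) CPM in CM. The media did not overlap in either cell type, and some CD26- CM libraries were below the floor of 3 counts. The log2 change was -2.29 ± 0.51 (SE, FDR 0.00666) in CD26- and -2.22 ± 0.37 (SE, FDR 0.000308) in CD26+ NFs, and Lgr5 was higher in CD26+ NFs in both media (1.74 and 1.80). Under the epithelial covariate these differences between the cell types were 2.58 and 2.54, neither past the threshold. Lgr6 (166, 135 and 157 CPM in CD26- control and 101 to 129.6 (median 113) CPM in CD26- CM libraries) fell in CD26- NFs (log2 change -0.42), a call lost without control replicate 1 or 3 (FDR 0.101 and 0.0839), and its log2 change of -0.15 in CD26+ NFs did not pass (125, 127 and 135 CPM in control medium and 99.8 to 143 (median 109) CPM in CM).

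Of the TCF/LEF factors, both were lower in CD26+ than in CD26- NFs in control medium, and neither passed for CM as reported. With the epithelial covariate both passed as higher with CM in CD26+ NFs, at 0.64 for Tcf7 (FDR 0.0456) and 0.57 for Lef1 (FDR 0.0484). Lef1 also passed in that comparison without CD26+ CM replicate 18 (FDR 0.0120). Tcf7 (ENSMUSG00000000782, chromosome 11, 52252371 to 52283331) had 17.7, 19.8 and 18.7 CPM in CD26- control and 8.58, 5.93 and 9.57 CPM in CD26+ control libraries, a log2 difference of -1.22, and -0.78 in CM, where the cell types overlapped at 13.1 to 28.2 (median 20.5) CPM in CD26- and 7.60 to 16.2 (median 12.7) CPM in CD26+ NFs. Tcf7 overlaps genes on both strands in the annotation. With the epithelial covariate the log2 difference was -0.24 and 0.0912, neither past the threshold. Lef1 ran from 2.02 to 4.60 CPM over all libraries and was lower in CD26+ NFs in control medium (log2 difference -0.81, and -0.39 with the covariate, not past the threshold).

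The 5 feedback inhibitors did not move together. Nkd2 (ENSMUSG00000021567, chromosome 13, 73818534 to 73847631), an inhibitor that binds Dishevelled, had 43.4, 41.9 and 41.1 CPM in CD26- control and 64.3 to 83.4 (median 74.3) CPM in CD26- CM libraries. In CD26+ NFs it had 24.7, 21.3 and 25.4 CPM in control medium and 44.4 to 87.4 (median 80.6) CPM in CM. Every CM library lay above every control library of its cell type, and the log2 change was 0.81 ± 0.18 (SE, FDR 0.00677) in CD26- and 1.58 ± 0.19 (SE, FDR 1.32e-05) in CD26+ NFs. In CD26+ NFs the lowest CM libraries were those of 13-MCB-138 and 18-MCB-12, at 44.4 and 49.9 CPM. In control medium Nkd2 was lower in CD26+ NFs (-0.82, and -0.47 with the epithelial covariate, not past the threshold), and it did not differ at the FDR in CM (-0.05). The difference between its CM effects was 0.78 ± 0.25 (SE, FDR 0.0656) and did not pass as reported. It passed with the line as a block, in DESeq2 (FDR 0.0325), and without CD26+ CM replicate 15 (FDR 0.0377) or 18 (FDR 0.00665).

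Axin2 (ENSMUSG00000000142, chromosome 11, 108920349 to 108950783), the inhibitor most often read as a target of beta-catenin, passed no group comparison as reported, and with only the 2 groups compared it was lower in CD26+ NFs in control medium (FDR 0.000792). It had 10.8, 12.0 and 10.5 CPM in CD26- control, 8.41 to 15.8 (median 9.74) CPM in CD26- CM, 7.28, 7.41 and 7.64 CPM in CD26+ control and 6.00 to 14.4 (median 9.17) CPM in CD26+ CM libraries. The log2 CM effect was -0.07 in CD26- (95% interval -0.49 to 0.35) and 0.39 in CD26+ NFs (95% interval -0.05 to 0.83), and with the epithelial covariate the effect in CD26+ NFs was 0.46 and passed. Nkd1, the relative of Nkd2, was higher in CD26+ NFs in both media (1.06 and 0.91) and at 3.78, 3.33 and 2.77 CPM in CD26- control and 6.39, 7.33 and 6.68 CPM in CD26+ control libraries, and at 2.32 to 5.40 (median 3.35) CPM and 5.33 to 10.6 (median 6.57) CPM in CM. With the epithelial covariate its differences between the cell types were 2.18 and 1.89, both past the threshold. Of the ligases that remove Frizzled receptors, Rnf43, at 0.606 to 6.15 CPM, was lower in CD26+ NFs in both media (-2.42 and -1.51), as was Znrf3 (19.7, 20.7 and 17.5 CPM in CD26- control and 13.2, 14.4 and 13.5 CPM in CD26+ control libraries, -0.49 and -0.21). Under the epithelial covariate Rnf43 was at -0.42 in control medium and turned to 0.34 in CM, and Znrf3 was at -0.55 and -0.26, none past the threshold. In CM Znrf3 had 15.2 to 18.4 (median 17.1) CPM in CD26- and 12.3 to 16.7 (median 15.0) CPM in CD26+ NFs. Rnf43 overlaps genes on both strands, and their reads may be shared. The call of Znrf3 in CM was lost without replicates 5, 7, 14 or 16 (FDR up to 0.0607).

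The CM of each line was given to 1 library of each cell type, so the line was tested over the 12 CM libraries with the cell type as a term. Of 37 members, 13 passed (35.1%), against 6.28% of all tested genes. They were the ligands Wnt2b, Wnt5a, Wnt5b, Wnt9a and Wnt11, the receptors Fzd4, Fzd5, Fzd6, Lrp6, Lgr4 and Lgr5, and Tcf7 and Axin2. For 7 of the 13 the library given CM of 13-MCB-44 was the highest in both cell types, and for 3 it was that of 13-MCB-138. Among the 24 members that did not pass, 13-MCB-44 was highest in both cell types for 6.

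Wnt5b reached 31.1 CPM with CM of 13-MCB-44 in CD26- NFs and 8.01 CPM in CD26+ NFs, while the other lines gave 15.1 to 20.1 CPM and 3.38 to 5.68 CPM (FDR 0.0171). Fzd6 (FDR 0.0139) had 46.7 and 16.2 CPM with CM of 13-MCB-44 and 26.3 and 7.60 CPM with CM of 18-MCB-12. Axin2 had 15.8 and 14.4 CPM with CM of 13-MCB-44 and 8.41 and 6.00 CPM with CM of 18-MCB-12, the highest and the lowest line in both cell types, with an FDR of 0.0448. Wnt9a had 26.5 and 28.1 CPM with CM of 13-MCB-44, and 12.1 to 22.9 CPM and 9.85 to 18.8 CPM with the other lines.

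Epithelial markers move with the line as well. Their mean log2 CPM was highest with CM of 13-MCB-44 in both cell types, at 6.94 against 6.14 to 6.69 for the other lines in CD26- NFs and at 5.48 against 4.12 to 4.97 in CD26+ NFs. With the epithelial covariate 3 members passed the line test, against 2.70% of all tested genes in that fit: Fzd4, Lgr4 and Wnt5a. Without both libraries of 13-MCB-44 the count was 5, and without single libraries it ran from 5, without replicate 16, to 21, without replicate 9 or 18. No filter on low counts gave 25. The shares of all tested genes in these further fits are not given here.

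The 3 members that kept the line effect had another order of lines. Fzd4 (FDR 0.00273, and 0.00891 with the epithelial covariate) reached 51.0 CPM with CM of 13-MCB-138 in CD26- NFs and 95.0 CPM in CD26+ NFs. With CM of 18-MCB-12 it had 39.3 and 59.5 CPM, and with CM of 10-SJK-221 20.8 and 21.1 CPM. Lgr4 (FDR 0.0173, and 0.0469 with the covariate) had 63.8 and 138 CPM with CM of 13-MCB-138 and 52.5 and 119 CPM with CM of 18-MCB-12, against 41.5 to 55.2 CPM and 88.8 to 96.1 CPM with the other 4 lines. Wnt5a (FDR 0.0156, and 0.0419 with the covariate) was lowest with CM of 10-SJK-221 in both cell types, at 50.5 and 47.9 CPM. Without the covariate, the call of Lgr4 was lost without replicate 8 (FDR 0.0530) or both libraries of 13-MCB-138 (FDR 0.0696). That of Wnt5a was lost without replicate 5 (FDR 0.0566), replicate 14 (FDR 0.0640) or both libraries of 10-SJK-221 (FDR 0.0887).

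**Figure D5:**
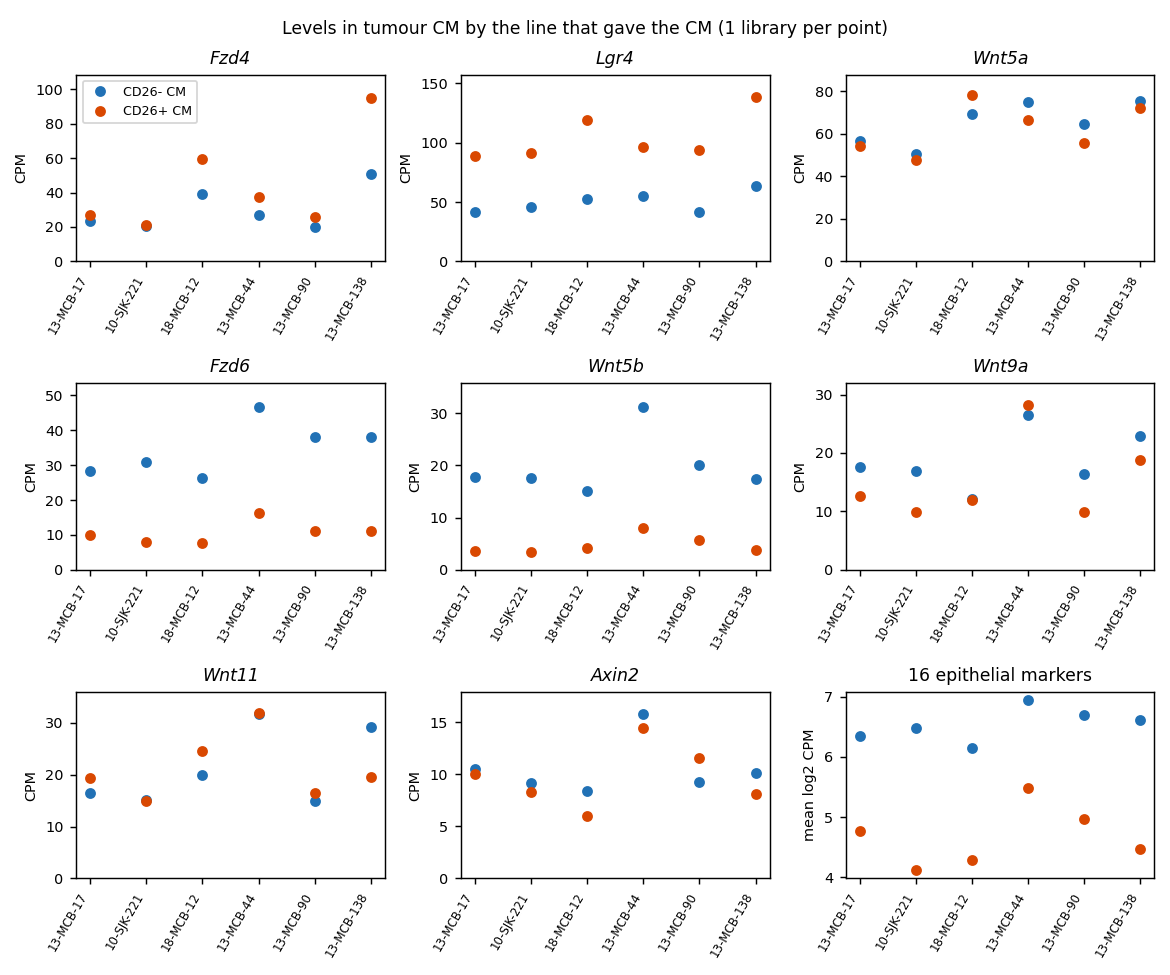
Levels in tumour CM by the line that gave the CM (x axis), in CD26- (blue) and CD26+ NFs (orange), 1 library per point: CPM from 0 for 8 members, and in the last panel the mean log2 CPM of 16 epithelial markers. Fzd4 and Lgr4 are highest with 13-MCB-138, while Fzd6, Wnt5b, Wnt9a, Wnt11, Axin2 and the epithelial markers are highest with 13-MCB-44.

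Other genes of the pathway were described from 4 lists, in the fit without the epithelial covariate. Of 17 tested genes for Wnt secretion and co-reception, 12 differed between the cell types in control medium (9 higher and 3 lower in CD26+ NFs), 10 in CM (8 higher and 2 lower), 9 with CM in CD26+ NFs (4 higher and 5 lower) and 1 with CM in CD26- NFs. The shares of all tested genes were 50.3%, 58.6%, 28.6% and 15.2%. Adgra2, a co-receptor for Wnt7 ligands, was higher in CD26+ NFs (log2 1.56 ± 0.16, FDR 4.91e-07), the opposite direction to Wnt7a and Wnt7b, and rose with CM in CD26- NFs (log2 0.97 ± 0.14, FDR 0.000373). Wls, the carrier that brings Wnt ligands to the cell surface, fell with CM in CD26+ NFs (log2 -0.51 ± 0.12, FDR 0.00403).

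Of 35 tested genes of the intracellular beta-catenin pathway, 19 differed between the cell types in control medium (10 higher and 9 lower in CD26+ NFs). In CM 21 differed (16 higher and 5 lower), where 29.3% of all tested genes were higher and 29.3% lower. For the CM effect 5 passed in CD26- and 8 in CD26+ NFs. In any direction the 4 counts were near or below the 50.3%, 58.6%, 15.2% and 28.6% of all tested genes. Tcf7l2, a TCF factor that is no member of the set, rose with CM in CD26+ NFs (log2 0.54 ± 0.08, FDR 0.000119) and its CM effects differed (log2 0.55 ± 0.11, FDR 0.00894). Of 17 planar cell polarity genes, 8 differed between the cell types in control medium (4 higher and 4 lower) and 13 in CM (9 higher and 4 lower), against 50.3% and 58.6%, and 3 passed for CM in each cell type, against 15.2% of all tested genes in CD26- and 28.6% in CD26+ NFs, among them Dchs1, a protocadherin, with log2 2.52 ± 0.53, FDR 0.00495 in CD26- and log2 2.37 ± 0.46, FDR 0.00114 in CD26+ NFs. Of 13 other target genes of beta-catenin, 7 differed between the cell types in control medium (4 higher and 3 lower in CD26+ NFs) and 9 in CM (6 higher and 3 lower), where 50.3% and 58.6% of all tested genes passed. For CM 5 of the 13 passed in CD26- NFs (2 higher and 3 lower, against 15.2% of all tested genes) and 7 in CD26+ NFs (2 higher and 5 lower, against 28.6%). Notum, a secreted enzyme that inactivates Wnt ligands, was higher in CD26+ NFs (log2 3.25 ± 0.27, FDR 6.31e-08), while Tbx3, a T-box factor of mammary development, rose with CM in both cell types (log2 0.77 ± 0.15, FDR 0.00324 and log2 1.04 ± 0.15, FDR 7.94e-05).

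The 10 members removed by the filter on low counts were Wnt1, Wnt3, Wnt3a, Wnt6, Wnt8a, Wnt8b, Wnt9b, Rspo1, Rspo4 and Fzd9. Wnt9b, with 12 counts over the 6 CD26- CM libraries and 1 over the 6 CD26+ CM libraries, passed between the cell types in CM in DESeq2 and with no filter, and none of the other 9 passed in any alternative. Their highest count in any library was 10, in Fzd9, and Wnt3a and Wnt8a had 0 counts in all libraries, where a count of 0 allows up to 3 counts. Wnt6 and Wnt3a sit next to tested ligands in the genome. Wnt6, with at most 3 counts, lies 6193 bases from Wnt10a, which reached 141 counts, and Wnt3a lies 16175 bases from Wnt9a, which reached 452 counts.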

How the data were processed

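RNA-seq libraries of 4 groups were analysed: CD26- and CD26+ NFs in control medium (3 each) or tumour CM (6 each). The deposited values are raw read counts per gene, made by the authors with HISAT2 2.1.0 and HTSeq on GRCm38, per the submitters' processing notes. The strand setting of the counting and the sequencing platform of each library are not given in the sources used here. Besides Wnt5b, Wnt7b, Tcf7 and Rnf43, other tested members overlap a gene in the annotation, and reads may be shared. These are Fzd3, Fzd5, Fzd6, Rspo3, Lgr5, Ror1, Lef1, Axin2, Nkd1, Nkd2, Wnt2b, Wnt5a and Wnt11.

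Counts were tested with edgeR 4.0.16 in R 4.3.3: genes with low counts were removed by group (14273 of 55486 kept), libraries were TMM-scaled, and 1 quasi-likelihood model was fitted to the 4 groups. The CM line was tested by an F test over the 12 CM libraries with the cell type as a term. FDR is the Benjamini-Hochberg adjusted p over all tested genes, with a threshold of 0.05, and SE is the log2 fold change over the root of its F. RPKM used exon-union lengths from GENCODE annotation on GRCm38, and gene coordinates are those of the deposited table. Alternatives were RLE and upper-quartile scaling, no filter, only the groups compared, DESeq2 1.42.0, the line as a block, leaving out each library, and for the cell types a mean of 16 epithelial markers as covariate. This covariate in the other comparisons, and leaving out a whole line, were chosen after seeing the data. Libraries given CM of the same tumour line were paired: their deviations from the group means correlated at 0.247 to 0.406 over genes in all 6 pairs, against -0.315 to 0.242 for different lines. On simulated counts of the CM effect in CD26- NFs (13994 genes), 80.8% of changes of 1 on the log2 scale and 96.0% of changes of 2 were recovered, against 68.7% and 91.8% for the difference between CM effects (14001 genes) and 54.0% and 81.0% for the line (14273 genes).

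Part of the genotype of the tumour model is not reported here. Members and lists were chosen with earlier results of these data known. All members are accounted for. Per-library values are given for members that passed an FDR in any of the 6 tests with a group mean of at least 5 CPM, and SE and FDR for at most the 6 members with the smallest p in each comparison and any member whose CM effects differed. A few other values were added after they were seen (low members, and calls lost in an alternative). From each pathway list genes were taken among the 2 smallest p of a comparison. Library totals of 9725723 to 14585349 counts set the precision, and the floor of 3 counts covers counting error only.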

Additional observations from a re-analysis of the deposited data

Results flagged for a closer look

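Axin2 with CM of 13-MCB-44 in CD26- NFs (replicate 7) stood apart from the other libraries of its group, at 15.8 CPM against 10.5 CPM for the next highest. On the scale of log2(CPM + 0.1) the gap was 0.652 of the range of the 6 libraries. Of 74 groups of members checked this was the 1 that stood out, fewer than the 3.7 that chance gives at about 1 in 20. The CD26+ library given CM of the same line was also the highest of its group, at 14.4 CPM. The epithelial marker mean was highest with this line in both cell types, and its part in the Axin2 level was not tested in the single library.

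The CM effect on Lrp5 differed between the cell types by 0.43 on the log2 scale in a test of the difference itself (FDR 0.0494, edgeR). The call was lost without any 1 of 14 of the 18 libraries, with upper-quartile scaling (FDR 0.0640), with no filter on low counts (FDR 0.0610) and with the epithelial covariate (FDR 0.0584). The level was 63.1 to 67.2 CPM in the CD26+ control libraries and 70.6 to 104 CPM in CD26+ CM, against 84.6 to 91.4 CPM and 74.6 to 92.6 CPM in CD26- NFs.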

How the results depend on the processing

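Counting only members that passed in the comparison as reported, 1169 values over the alternatives kept their direction and side of the threshold, 202 kept the direction but missed it, and 6 reversed. In 92 further cases 1 of the 37 tested members passed in an alternative alone, and Wnt9b, otherwise removed by the filter on low counts, passed between the cell types in CM in DESeq2 and with no filter. The 6 reversals of called values came with the epithelial covariate, which was added after seeing the data in all comparisons other than the cell types: Wnt10a at 0.0050, Wnt10b at 0.074, Wnt4 at 0.42 and Wnt11 at 0.16 in control medium, and Tcf7 at 0.091 and Rnf43 at 0.34 in CM, as log2 differences of CD26+ over CD26- NFs. Over all 185 values of members in the 5 group comparisons, called or not, 31 changed sign with it. With this covariate the number of members passing went to 17 for CM in CD26+ NFs, 4 and 7 for the cell types in control medium and CM, 0 for the difference between CM effects and 3 for the line. For the difference between CM effects, upper-quartile scaling and no filter on low counts gave 0, DESeq2 3 and the line as a replicate block 4, against 6 members at an unadjusted p under 0.05 in edgeR. For the line, no filter gave 25 and leaving out line 13-MCB-44 gave 5. The cause was not tested.

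Leaving out each library in turn gave 6 to 12 members for CM in CD26- NFs, 7 to 13 for CM in CD26+ NFs, 24 to 26 and 21 to 23 for the cell types in control medium and CM, 0 to 3 for the difference between CM effects and 5 to 21 for the line. The line count was 7 without replicate 7, 8, 15 or 17, 8 without 5, 6 or 14, and 21 without 9 or 18. The difference count was 3 without replicate 18 and 2 without replicate 7. The replicate block moved no count of calls by over 1.5 times apart from that of the difference. Depth limits Wnt16 and Rspo2 in CD26- NFs, Lgr5 in CD26- NFs in CM, and Wnt10b, each near 3 counts in some libraries.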

Other observations

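Wnt10b and Wnt1, 11706 bases apart on chromosome 15, reached at most 13 and 5 counts in any library. Wnt9b and Wnt3, 24328 bases apart on chromosome 11, reached at most 6 and 1 counts. No difference within either pair was tested.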
